A study of Mus musculus with 2 samples.

Results

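The genes described here encode the receptors of the colony-stimulating factors in mouse, with 1 of their ligands and a related receptor. They are *Csf1r*, *Csf2ra*, *Csf2rb*, *Csf2rb2*, *Csf3r*, *Csf1* and *Flt3*. These 7 of the 32285 genes in the tables were chosen by name, and all 7 had UMIs (molecules counted by a unique tag) in both libraries.

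Colony-stimulating factors are cytokines that keep myeloid cells alive and drive them to divide and mature. CSF1R, a receptor tyrosine kinase, binds CSF1 (M-CSF) and IL-34 and is needed by most tissue macrophages. The GM-CSF receptor joins a binding chain, encoded by *Csf2ra*, to the beta common chain of *Csf2rb*, which the receptors for IL-3 and IL-5 also use. *Csf2rb2* encodes a beta chain specific to IL-3 that mice have and humans lack. CSF3R, the receptor for G-CSF, is best known on neutrophils and their precursors. FLT3, a relative of CSF1R, supports early progenitors and dendritic cells. After myocardial infarction, monocytes that carry these receptors enter the heart and become macrophages there.

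Cells were sorted as mononuclear macrophages carrying CD45, CD11b and CD64 from the infarct and border zones of mouse hearts 3 days after myocardial infarction. They were measured by droplet RNA sequencing of 3′ ends (10x Genomics, v3 kit). The first group was labelled CD40 KO, which names a knockout of the receptor CD40, and the second WT. The labels give each group 1 library, and leave out the allele, strain, age, sex and number of mice. A single library has no replicates, so the groups were not tested against each other. All intervals are exact 95% intervals that cover counting error only, and each comparison is between these libraries.

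Deposited barcodes numbered 8146 for CD40 KO and 10624 for WT, with 90057108 and 139343516 UMIs. After filters and removal of marked doublets 7406 and 7247 barcodes remained, of which 13 had the same barcode sequence in both libraries. The targeted gene *Cd40* stood at 15.3 CPM (14.2 to 16.5) in macrophage-like cells of the CD40 KO-labelled library and 17.7 CPM (16.7 to 18.6) in WT. The labels do not say which part of the gene was deleted, and a 3′ tag outside it checks nothing about the label. Barcodes were clustered without the 7 genes. The macrophage-like class (2324 barcodes labelled CD40 KO and 5159 WT) joined 3 clusters, named here for leading genes. They were the *Gpnmb* cluster, with genes of lipid-handling macrophages (745 and 3239), the *Ly6c2* cluster, with genes of monocytes (1227 and 1606), and a cycling cluster led by *Top2a* (352 and 314). The cycling cluster was placed in the class through the cycling markers, with macrophage markers high. A mixed cluster with macrophage and neutrophil transcripts (210 and 909) and an *Mt1*/*Crip1* cluster that was almost all from the CD40 KO-labelled library (4350 and 23) were given no cell type. In the class the sort markers were present: *Ptprc* (CD45) at 568 and 497 CPM, *Itgam* (CD11b) at 188 and 163 CPM and *Fcgr1* (CD64) at 168 and 203 CPM, with CD40 KO before WT. CPM is a gene's UMIs per 1000000 UMIs summed over the cells of a group.

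*Csf2rb* and *Csf2rb2* are close copies, so their sequences decide whether a tag can be given to the right gene. They lie side by side on chromosome 15, *Csf2rb* at chr15:78325752-78353847 on the plus strand and *Csf2rb2* at chr15:78282507-78305721 on the minus strand, 20030 bases apart (GENCODE vM21, build GRCm38). Over 2628 aligned coding bases they were 95.2% identical. The last 120 aligned coding bases, which lie in the last exon of each, are shown to make the likeness visible, with the 6 positions that differ in capitals.
Csf2rb: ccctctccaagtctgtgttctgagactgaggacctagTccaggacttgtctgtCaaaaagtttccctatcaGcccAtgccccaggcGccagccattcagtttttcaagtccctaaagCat
Csf2rb2: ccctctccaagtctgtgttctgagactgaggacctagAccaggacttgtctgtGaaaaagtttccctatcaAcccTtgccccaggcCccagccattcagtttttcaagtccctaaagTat
The stretches lie at chr15:78349009-78349128 (plus strand) and chr15:78284320-78284439 (minus strand). Along the whole transcripts, 892 of 4851 windows of 50 bases in *Csf2rb* (18.4%) also occurred in *Csf2rb2*. In the last 600 bases of the longest coding transcript, where 3′ tags tend to fall, 0 of 551 windows were shared in either gene. For *Csf2rb* that transcript ends at 78351001, short of the end of the gene, and windows beyond it were not counted. No source used here says how reads matching both genes were treated, so their UMIs could still be mixed in part.

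*Csf1r*, the CSF1 receptor (ENSMUSG00000024621; chromosome 18, plus strand, 61100598 to 61132149), was highest in the *Ly6c2* cluster. There it stood at 295 CPM (288 to 302) in the CD40 KO-labelled library and 269 CPM (261 to 276) in WT. The *Gpnmb* cluster held 234 CPM (226 to 242) in the CD40 KO-labelled library and 194 CPM (190.5 to 198) in WT. In the CD40 KO-labelled library the *Gpnmb*, cycling (238) and *Mt1*/*Crip1* (242 CPM) clusters had overlapping intervals below the mixed cluster (266 CPM). The *Mt1*/*Crip1* cluster lay below the macrophage-like class as a whole, at 264 CPM (259 to 269). In WT the cycling cluster stood at 209 and the mixed cluster at 227 CPM.

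In the named cell types other than macrophages *Csf1r* was lower. A small unnamed cluster of shallow barcodes, with *Gm26917* and *Cmss1* among its leading genes, had 169.9 CPM in the CD40 KO-labelled library and 199 CPM in WT, at the level of the *Gpnmb* cluster in WT within counting error. Dendritic-like cells had 168 CPM (157 to 180.3) in the CD40 KO-labelled library and 155 CPM (143 to 167) in WT. Neutrophil-like cells had 98.7 CPM (61.9 to 149.5) and 102 CPM (81.1 to 126) in the same order. In WT, endothelial-like cells had 9.61 CPM (5.79 to 15.01) and fibroblast-like cells 14.1 CPM (10.53 to 18.6), intervals that overlap. Fibroblast-like cells of the CD40 KO-labelled library had 37.5 CPM (29.7 to 46.7); *Ptprc* there stood at 39.4 CPM, against 19.7 CPM in WT, and the part of free or leukocyte RNA was not tested. A *Csf1r* UMI was seen in 89.4% of macrophage-like barcodes labelled CD40 KO and 82.2% of WT ones, at median depths of 15307.5 and 11709 UMIs. Thinned to 3000 UMIs per barcode, which left out 57 and 161 shallower barcodes, the shares were 51.7% and 45.5%. T or NK-like barcodes, which should lack the gene, gave 0 of 35 in WT after thinning (median depth 4248 UMIs before it), which allows a share of up to 8.57%, taking 3 counts as the limit of a count of 0. Endothelial-like WT barcodes gave 1.89% (median depth 5862 UMIs). The B-like, T or NK-like and endothelial-like clusters of the CD40 KO-labelled library held 12 barcodes each and are not described further.

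**Figure D1:**
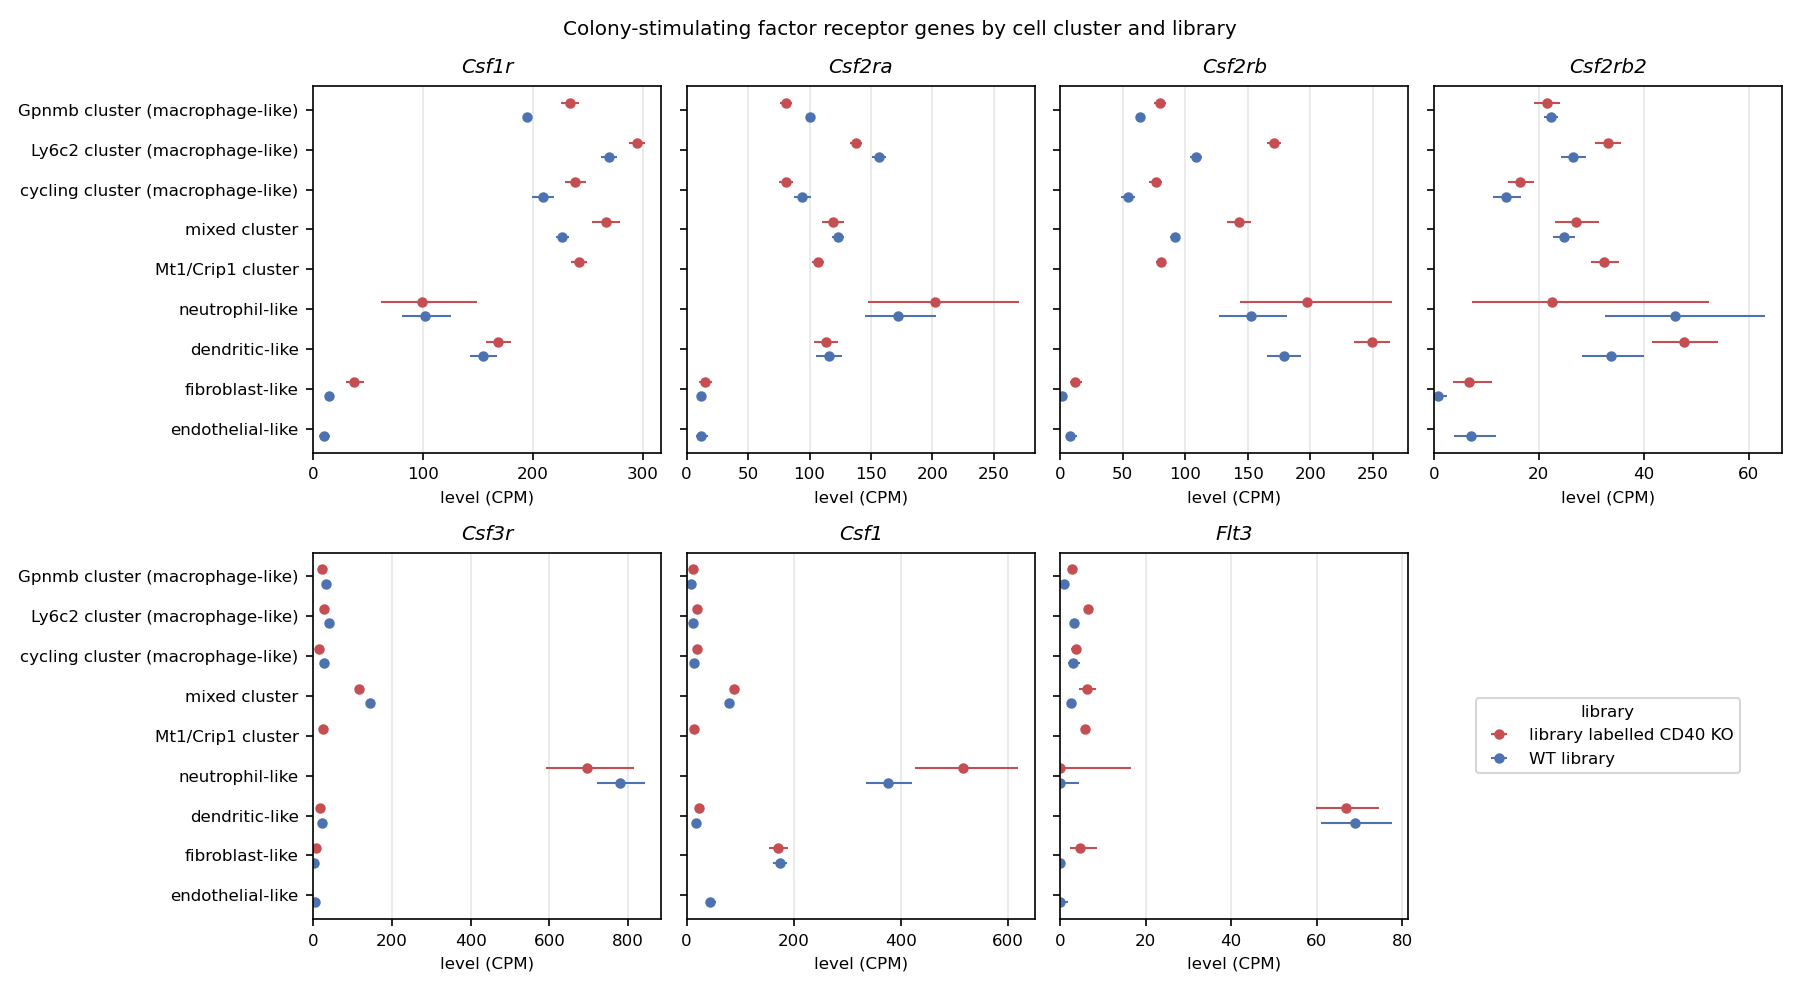
Level of each gene (CPM, linear axis from 0) in each cell cluster, red for the CD40 KO-labelled library and blue for the WT library, with exact 95% counting intervals. *Csf1r* is high in every macrophage cluster, *Csf3r* and *Csf1* in neutrophil-like cells (Csf3r 696 and 779.5 CPM) and *Flt3* in dendritic-like cells (66.9 and 68.9 CPM), with the CD40 KO-labelled library before WT; groups under 50 barcodes are not drawn.

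*Csf2ra*, the GM-CSF binding chain (ENSMUSG00000059326; chromosome 19, minus strand, 61223957 to 61228429), was present in macrophage-like, neutrophil-like and dendritic-like cells. Neutrophil-like cells had 202 CPM (147 to 270.3) in the CD40 KO-labelled library and 172 CPM (145 to 203) in WT, where the interval met that of the *Ly6c2* cluster. The *Ly6c2* cluster had 138 CPM (133 to 143) in the CD40 KO-labelled library and 157 CPM (151 to 163) in WT. The *Gpnmb* cluster was lower, at 80.7 CPM (76.0 to 85.6) in the CD40 KO-labelled library and 101 CPM (97.9 to 104) in WT, and the cycling cluster did not stand apart from it in either library. The small unnamed cluster had the highest values, 268 CPM (205 to 345) and 273 CPM (192 to 376), from only 60 and 37 UMIs. Fibroblast-like cells had 14.7 CPM in the CD40 KO-labelled library and 11.6 CPM in WT.

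*Csf2rb*, the beta common chain (ENSMUSG00000071713), was highest in dendritic-like cells. They had 249 CPM (235 to 263) in the CD40 KO-labelled library and 179 CPM (166 to 192) in WT. Neutrophil-like cells followed with 197 CPM (143 to 265) and 153 CPM (127 to 182), and their intervals overlapped those of dendritic-like cells in both libraries. Within the macrophage-like class the *Ly6c2* cluster led, at 171 CPM (165 to 176) in the CD40 KO-labelled library and 108 CPM (104 to 113) in WT. The *Gpnmb* cluster had 80.0 CPM (75.4 to 84.9) and 63.7 CPM (61.5 to 66.0), and the cycling cluster 76.3 and 54.0 CPM, in the same order. The *Mt1*/*Crip1* cluster, at 80.6 CPM, lay at the level of the *Gpnmb* cluster of its library. Fibroblast-like cells had 11.9 CPM (7.67 to 17.5) and 1.66 CPM (0.610 to 3.62).

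*Csf2rb2*, the IL-3-specific beta chain (ENSMUSG00000071714), had fewer UMIs and a similar spread. In dendritic-like cells it stood at 47.6 CPM (41.6 to 54.1) in the CD40 KO-labelled library and 33.7 CPM (28.2 to 39.9) in WT. The *Ly6c2* cluster had 33.1 CPM (30.8 to 35.6) and 26.5 CPM (24.2 to 29.0), and the *Gpnmb* cluster 21.5 CPM (19.1 to 24.1) and 22.4 CPM (21.1 to 23.7). In neutrophil-like cells only 5 UMIs in the CD40 KO-labelled library and 38 in WT were counted, so the values 22.4 and 46.0 CPM have overlapping intervals. The highest of the named types was dendritic-like in the CD40 KO-labelled library and neutrophil-like in WT, where the intervals of these 2 types overlapped.

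*Csf3r*, the G-CSF receptor (ENSMUSG00000028859; chromosome 4, plus strand, 126024550 to 126044440), was concentrated in neutrophil-like cells. They had 696 CPM (590.5 to 814) in the CD40 KO-labelled library and 779.5 CPM (720.5 to 842) in WT. After thinning, 83.3% of 30 and 80.0% of 80 neutrophil-like barcodes had a UMI of it. The mixed cluster had 117 CPM (109 to 126) and 145 CPM (139.6 to 149.6), between neutrophil-like and macrophage-like cells. It was also the cluster in which the 12 neutrophil markers summed to 3642 CPM in the CD40 KO-labelled library and 3286 CPM in WT, with macrophage markers present and the median barcode at 25692.5 and 20551 UMIs. Whether its barcodes held 1 cell or more than 1 was not tested.

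Macrophage-like cells held *Csf3r* at a low level, 22.9 CPM (21.5 to 24.3) in the CD40 KO-labelled library and 33.6 CPM (32.3 to 35.0) in WT. A UMI was present in 6.53% (5.55 to 7.62) and 9.86% (9.05 to 10.7) of thinned barcodes. Endothelial-like barcodes of WT gave 2.52% (0.69 to 6.32), an interval that overlaps the first of these. T or NK-like barcodes of WT gave 0 of 35, with an interval up to 10.0% that covers both macrophage-like shares. Dendritic-like cells had 16.7 and 23.5 CPM. Macrophage-like cells, the largest class in WT, held 42.2% and 38.6% of all *Csf3r* UMIs in kept barcodes, the mixed cluster 29.1% and 49.5%, and neutrophil-like cells only 6.13% and 9.81%, each with the CD40 KO-labelled library before WT.

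*Csf1*, the ligand of CSF1R (ENSMUSG00000014599; chromosome 3, minus strand, 107741048 to 107760469), was highest in neutrophil-like cells, where *Csf1r* lay below every macrophage-like cluster. Neutrophil-like cells had 516 CPM (426 to 619.6) in the CD40 KO-labelled library and 376 CPM (336 to 421) in WT. Fibroblast-like cells followed with 171 CPM (154 to 189) and 174 CPM (160.5 to 188), and the mixed cluster with 89.1 CPM (81.9 to 96.8) and 79.1 CPM (75.5 to 82.9). Endothelial-like WT cells had 44.5 CPM (35.7 to 54.8). Macrophage-like cells stood at 16.7 CPM (15.5 to 17.9) in the CD40 KO-labelled library and 9.55 CPM (8.87 to 10.3) in WT, the lowest being the *Gpnmb* cluster with 11.6 and 8.14 CPM. Ligand and receptor were thus highest in different cells of the same sort. Of all *Csf1* UMIs in kept barcodes the macrophage-like class held 35.1% in the CD40 KO-labelled library and 19.9% in WT. The mixed cluster held 25.4% in the CD40 KO-labelled library and 49.3% in WT, and fibroblast-like cells 16.3% and 17.4%. The gate selected for CD45, CD11b and CD64, so these are shares of what was sorted and not of the heart.

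*Flt3*, the FLT3 ligand receptor (ENSMUSG00000042817; chromosome 5, minus strand, 147330741 to 147400489), was a dendritic-like gene. Dendritic-like cells had 66.9 CPM (59.8 to 74.6) in the CD40 KO-labelled library and 68.9 CPM (60.9 to 77.6) in WT, intervals that overlap. They held 46.2% and 58.7% of all its UMIs while making up 234 and 245 barcodes. Neutrophil-like cells had no *Flt3* UMI in either library, where 3 UMIs would be 13.5 CPM in the CD40 KO-labelled library and 3.63 CPM in WT. Macrophage-like cells had 4.73 CPM (4.12 to 5.39) and 1.66 CPM (1.38 to 1.98), or 220 and 125 UMIs, in the same order. The 14 dendritic markers summed to 387 CPM in macrophage-like cells of the CD40 KO-labelled library and 331 CPM in WT, 3 of them at 10 CPM or more and none at 0 in each. In dendritic-like cells the sum was 1053 and 1227 CPM in the same order. In WT it was also 2152 CPM in endothelial-like and 679 CPM in fibroblast-like cells, so the sum is not particular to dendritic cells. The part of dendritic RNA in the *Flt3* value was not tested.

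**Figure D2:**
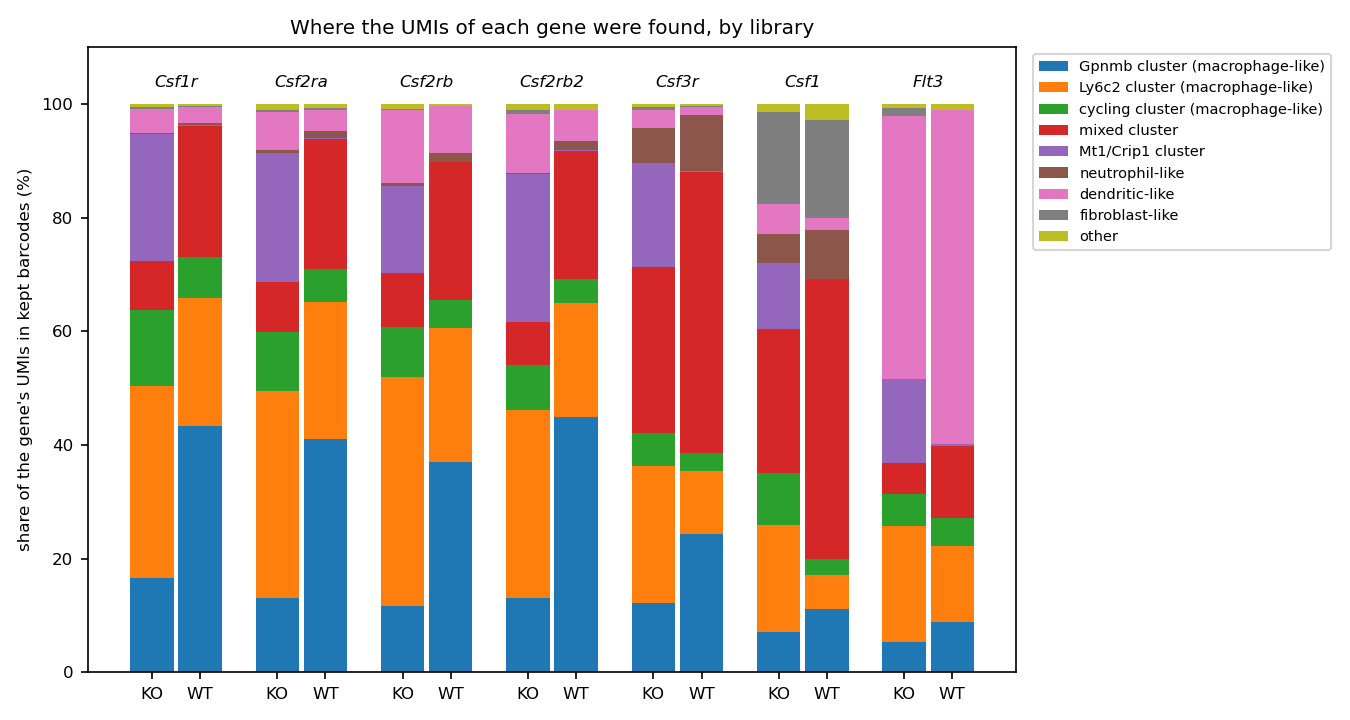
Share of each gene's UMIs in kept barcodes (%) by cell cluster, with a bar for the CD40 KO-labelled library (KO) to the left of the bar for WT. Most *Csf1r* UMIs come from macrophage-like cells (63.7% and 73.0%), *Csf1* and *Csf3r* from macrophage-like and mixed clusters, while dendritic-like cells hold the largest share of *Flt3* (46.2% and 58.7%) ahead of macrophage-like cells (31.3% and 27.2%); bar heights also depend on how many barcodes each cluster holds.

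The comparison of the CD40 KO-labelled library with WT asked how the receptors stood in macrophages labelled as coming from mice without CD40. In the macrophage-like class *Csf2rb* was higher in the CD40 KO-labelled library, at 122 CPM (119 to 126) against 73.7 CPM (71.8 to 75.7) in WT, a log2 ratio of 0.73 (0.68 to 0.79). The class leaves out the *Mt1*/*Crip1* cluster, with 4350 barcodes of the CD40 KO-labelled library and 23 of WT. With that cluster added, *Csf2rb* stood at 111 CPM in the CD40 KO-labelled library and 73.7 CPM in WT. In the class without it *Csf1* was higher too, at 16.7 against 9.55 CPM, a log2 ratio of 0.81 (0.66 to 0.95). *Csf1r* was somewhat higher, at 264 CPM (259 to 269) against 214 CPM (211 to 217), a log2 ratio of 0.30 (0.27 to 0.34). *Csf3r* was lower, at 22.9 against 33.6 CPM, a log2 ratio of −0.55 (−0.66 to −0.45). *Csf2ra*, at 108 against 114 CPM, had −0.08 (−0.13 to −0.03), and *Csf2rb2*, at 25.9 against 22.5 CPM, had 0.20 (0.09 to 0.31). *Flt3*, at 4.73 against 1.66 CPM, had 1.51 (1.19 to 1.84) at a low level. The chains of the GM-CSF receptor therefore did not differ between the libraries by the same amount.

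Genes averaging 10 CPM or more over both libraries were called measured, as 6 of the 7 genes were in the class; *Flt3* was not. Of these 6, 2 (*Csf2rb* and *Csf1*) were at least 1.5-fold higher in the CD40 KO-labelled library, where 8.8% of all 7581 measured genes were, and 0 were at least 1.5-fold lower, where 3.42% were. The median log2 ratio was 0.25 over the 6 genes and 0.09 over all measured genes. At a limit of 1.3-fold 2 genes were higher, against 19.6% of measured genes, and 1, *Csf3r*, was lower, against 10.3%. The difference in *Csf2rb* was also seen per barcode at equal depth: 29.2% of thinned macrophage-like barcodes in the CD40 KO-labelled library and 19.6% in WT had a UMI, and 72.2% and 54.1% before thinning.

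The class was made up differently in the libraries, with the *Ly6c2* cluster a larger part of it in the CD40 KO-labelled library, so each cluster was compared on its own. *Csf2rb* had log2 ratios of 0.66 (0.58 to 0.73) in the *Ly6c2*, 0.33 (0.23 to 0.43) in the *Gpnmb* and 0.50 (0.33 to 0.68) in the cycling cluster, 0.64 (0.52 to 0.75) in the mixed cluster and 0.48 (0.34 to 0.62) in dendritic-like cells. It was thus higher in the CD40 KO-labelled library in each of these 5 groups of cells, and past 1.5-fold in the *Ly6c2* and mixed clusters only, where 6.47% and 9.99% of measured genes were. Whether the clusters differ from each other in this was not tested. With the 3 clusters of the class given equal shares in both libraries the ratio was 0.53, under 1.5-fold.

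Counts of genes past 1.5-fold were small in each group of cells. In the *Gpnmb* cluster 0 of 5 measured genes were past it in either direction, where 5.98% of all measured genes were higher and 2.03% lower. In the *Ly6c2* cluster 2 of 6 (*Csf2rb* and *Csf1*) were higher and 0 lower, against 6.47% and 4.84%. The cycling cluster had 0 higher and 1 lower, against 9.14% and 4.18%, and the mixed cluster 1 higher and 0 lower, against 9.99% and 5.63%. In dendritic-like cells 0 of 7 were past it, against 6.09% and 6.01%. In neutrophil-like cells 0 were higher and 1, *Csf2rb2*, was lower on 5 and 38 UMIs, against 18.4% and 25.4%. In fibroblast-like cells 1 of 3, *Csf1r*, was higher and 0 lower, against 10.1% and 16.3%.

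*Csf3r* was lower in the 3 macrophage-like clusters, the mixed cluster and dendritic-like cells, with log2 ratios of −0.52 in the *Gpnmb*, −0.52 in the *Ly6c2* and −0.31 in the mixed cluster and −0.49 in dendritic-like cells. The cycling cluster, at 14.0 CPM (11.8 to 16.4) in the CD40 KO-labelled library and 27.0 CPM (23.5 to 31.0) in WT, had a log2 ratio of −0.95 (−1.26 to −0.64), past 1.5-fold. In neutrophil-like cells the ratio was −0.16 (−0.43 to 0.09). *Csf2ra* was lower in all 3 macrophage-like clusters (−0.32 in the *Gpnmb*, −0.19 in the *Ly6c2* and −0.22 in the cycling cluster), and its intervals in the mixed cluster and dendritic-like cells held 0. *Csf1r* was higher in all 3, by 0.27, 0.13 and 0.19 in the same order, and its interval in dendritic-like cells held 0. *Csf2rb2* had 0.32 (0.15 to 0.49) in the *Ly6c2* cluster and 0.50 (0.18 to 0.82) in dendritic-like cells, where *Csf2rb* had 0.48. Its intervals in the *Gpnmb*, cycling and mixed clusters held 0.

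*Csf1* had a log2 ratio of 0.68 (0.44 to 0.92) in the *Ly6c2* cluster, 0.49 (0.14 to 0.84) in the cycling cluster and 0.17 (0.03 to 0.31) in the mixed cluster. The *Gpnmb* cluster, averaging under 10 CPM, had 0.51 (0.23 to 0.78). In neutrophil-like cells it was 0.46 (0.13 to 0.77) and in fibroblast-like cells −0.03 (−0.22 to 0.16). Neutrophil markers moved in the same direction in the class: all 12 were detected, and they summed to 223 CPM in the CD40 KO-labelled library (6 at 10 CPM or more) and 129 CPM in WT (5). In the 475 and 2217 macrophage-like barcodes with no UMI of those markers, the log2 ratio of *Csf1* was 0.79, that of *Csf3r* −0.91 and that of *Csf2rb* 0.44. In that set of barcodes *Csf2rb* stood at 91.3 CPM in the CD40 KO-labelled library and 67.5 CPM in WT, under 1.5-fold, and *Csf3r* at 17.4 and 32.9 CPM, past it. With the mixed cluster added to the class *Csf1* stood at 25.3 CPM in the CD40 KO-labelled library and 25.5 CPM in WT. That is a log2 ratio of −0.013, or hardly any difference. The mixed cluster made up 210 of the 2534 barcodes of that set in the CD40 KO-labelled library and 909 of 6068 in WT. With barcodes gated one by one from markers the log2 ratio of *Csf1* was −0.12. Its size and sign thus depend on how the class is drawn, and the cause was not tested.

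**Figure D3:**
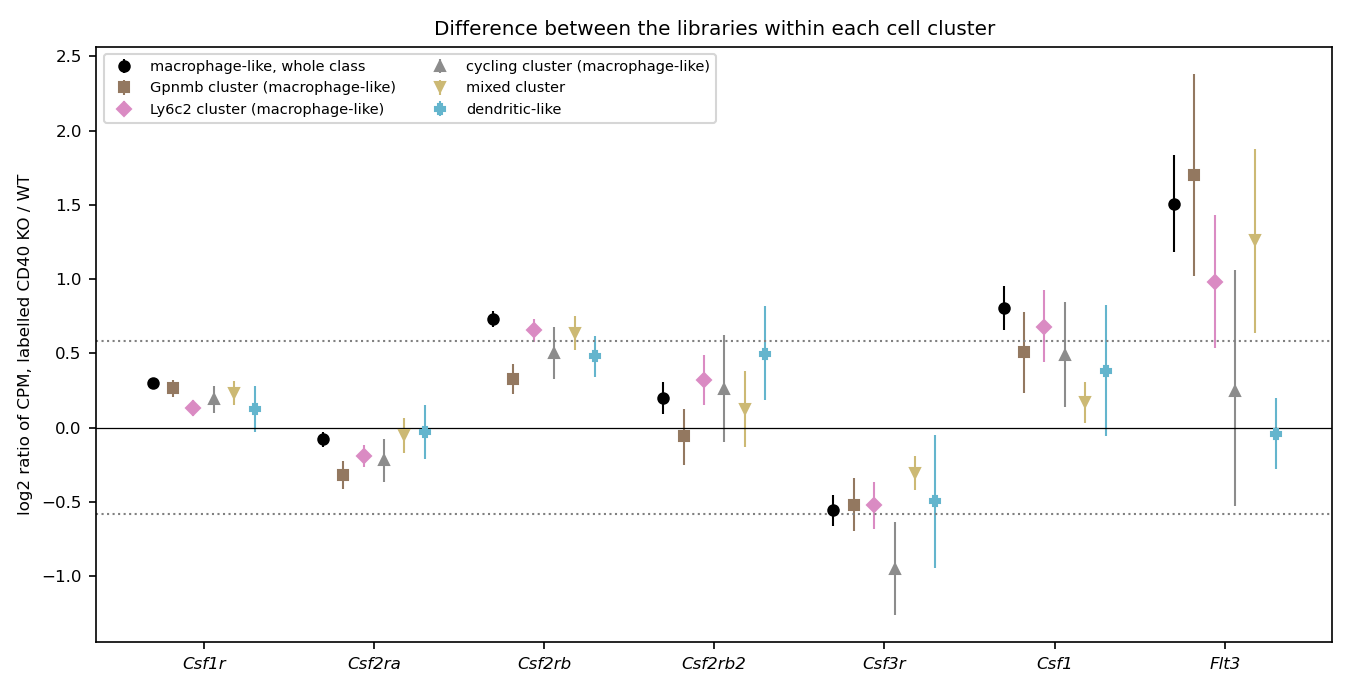
Log2 ratio of CPM, library labelled CD40 KO over WT, for each gene in the macrophage-like class and in 5 groups of cells, with exact 95% counting intervals; dotted lines mark 1.5-fold. *Csf2rb* lies above 0 and *Csf3r* below 0 in every group drawn, and *Csf2ra* lies below 0 in the 3 macrophage-like clusters.

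The ratio of *Csf2rb* to *Csf2rb2* UMIs was used only to compare cells, since capture near the 3′ end can differ between genes. In the macrophage-like class 4.73 (4.45 to 5.04) *Csf2rb* UMIs were counted per *Csf2rb2* UMI in the CD40 KO-labelled library and 3.27 (3.10 to 3.46) in WT. The *Ly6c2* cluster had 5.15 (4.76 to 5.58) and 4.09 (3.70 to 4.52), the *Gpnmb* cluster 3.73 (3.27 to 4.25) and 2.85 (2.66 to 3.05), and the mixed cluster 5.28 (4.48 to 6.26) and 3.71 (3.37 to 4.08), each higher in the CD40 KO-labelled library. The cycling cluster had 4.65 (3.94 to 5.50) and 3.93 (3.16 to 4.93), with overlapping intervals. Dendritic-like cells had 5.23 (4.54 to 6.05) and 5.30 (4.40 to 6.44), with overlapping intervals. The *Mt1*/*Crip1* cluster had 2.48 (2.25 to 2.74), below every macrophage-like cluster of its library.

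**Figure D4:**
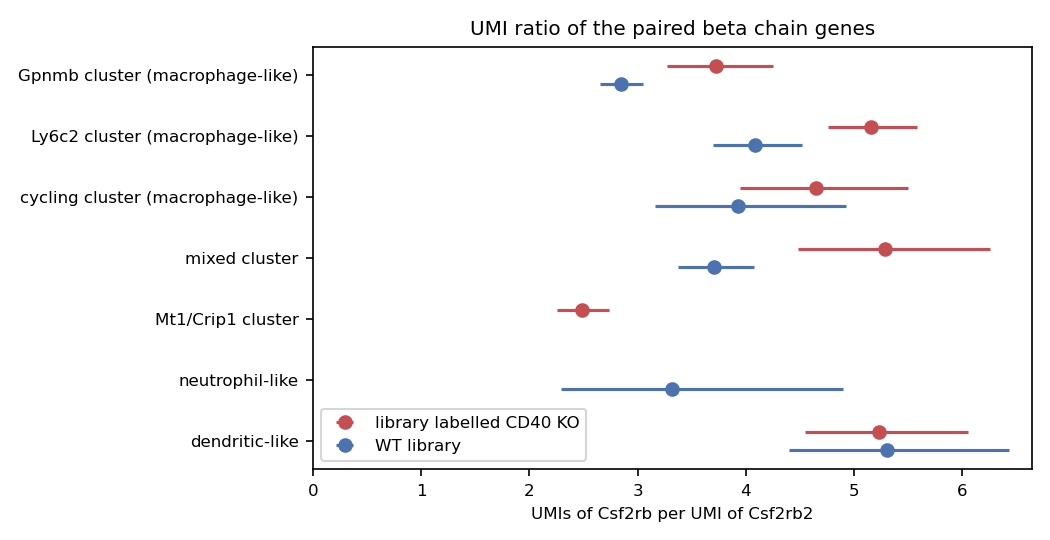
UMIs of *Csf2rb* per UMI of *Csf2rb2* (linear axis from 0) by cell cluster, red for the CD40 KO-labelled library and blue for WT, with exact 95% counting intervals; groups with too few UMIs are not drawn. The ratio is higher in the CD40 KO-labelled library in the *Gpnmb*, *Ly6c2* and mixed clusters, and its intervals overlap in the cycling cluster and in dendritic-like cells (5.23 and 5.30).

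Macrophage states within the class were then read from marker lists. Barcodes were gated after thinning to 3000 UMIs, and levels were taken from all their UMIs. Each gate needs a set number of markers, so it marks a range and not a cell type: 578 CD40 KO and 806 WT barcodes lay at the edge of the monocyte gate. In the monocyte gate (at least 5 of 7 genes such as *Ly6c2*, *Ccr2* and *Plac8*; 439 and 435 barcodes) *Csf2rb* stood at 183 CPM (174 to 192) in the CD40 KO-labelled library, against 108 CPM outside it. In WT the gate had 116 CPM (107 to 125), against 70.4 CPM outside. *Csf2ra* was likewise higher inside than outside, 145 against 98.9 CPM in the CD40 KO-labelled library and 163 against 109.99 CPM in WT. *Csf1r* had 294 against 257 CPM and 276 against 209.6 CPM, so all 3 were higher in barcodes with monocyte genes.

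The resident-like gate (at least 3 of 7 genes such as *Lyve1*, *Folr2* and *Timd4*; 98 and 231 barcodes, with 332 and 949 at its edge) went the other way for the GM-CSF receptor. *Csf2rb* stood at 75.3 against 125 CPM outside in the CD40 KO-labelled library, and at 57.2 against 74.6 CPM in WT. *Csf2ra* had 87.1 against 109 CPM and 86.4 against 115 CPM. *Csf1r* was not lower there, at 286 CPM (266 to 308) against 263 CPM in the CD40 KO-labelled library and 222 CPM (208 to 237) against 214 CPM in WT. In the lipid-associated gate (at least 6 of 7 genes such as *Trem2*, *Gpnmb* and *Spp1*; 369 and 1853 barcodes, with 773 and 2462 at its edge) all 3 genes were lower inside, with *Csf1r* at 249 against 268 CPM in the CD40 KO-labelled library and 184 against 240.4 CPM in WT.

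The cycling gate (at least 3 of 5 genes such as *Mki67* and *Top2a*; 127 and 175 barcodes) had less *Csf2rb*, 77.1 against 127 CPM in the CD40 KO-labelled library and 48.7 against 75.1 CPM in WT. It also had less *Csf3r*, 9.23 against 24.4 CPM and 21.2 against 34.2 CPM. *Csf2rb2* was lower as well, at 13.6 against 27.1 CPM and 11.5 against 23.1 CPM. In the interferon gate (at least 4 of 7 genes such as *Ifit1* and *Isg15*; 95 and 224 barcodes) *Csf2rb* was higher inside, at 149 CPM (130.2 to 169) against 121 CPM in the CD40 KO-labelled library and 88.6 CPM (78.2 to 99.96) against 73.0 CPM in WT. There *Csf1r* in the CD40 KO-labelled library was lower inside, at 214 CPM (192 to 238) against 266 CPM, while WT had 213 CPM (197 to 231) against 214 CPM; the difference between the libraries in this was not tested.

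**Figure D5:**
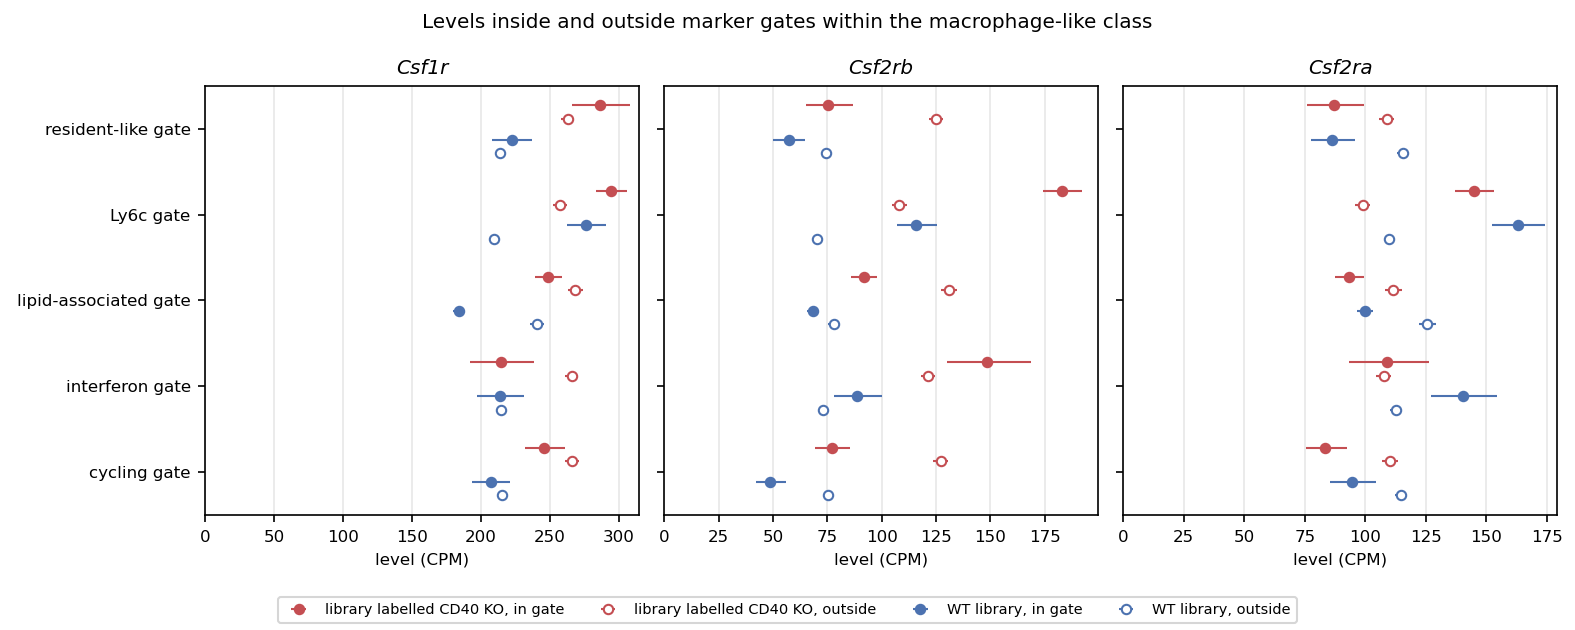
Level (CPM, linear axis from 0) of *Csf1r*, *Csf2rb* and *Csf2ra* in macrophage-like barcodes inside (filled) and outside (open) each marker gate, red for the CD40 KO-labelled library and blue for WT, with exact 95% counting intervals. *Csf2rb* and *Csf2ra* are higher inside the Ly6c gate and lower inside the resident-like, lipid-associated and cycling gates in both libraries.

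Detection of the GM-CSF receptor chains in the same barcode was counted at 3000 UMIs. Both *Csf2ra* and *Csf2rb* had a UMI in 8.43% of macrophage-like barcodes labelled CD40 KO and 6.48% of WT ones. *Csf2rb* was seen in 30.6% of barcodes with a *Csf2ra* UMI and 28.6% of those without in the CD40 KO-labelled library, and in 21.9% and 18.7% in WT. *Csf3r* was seen in 6.92% of barcodes with a *Csf1r* UMI and 6.11% of those without in the CD40 KO-labelled library, and in 10.6% and 9.22% in WT. Detection of 1 receptor thus said little about the other at this depth.

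Of the other ligands of the family none reached a mean of 10 CPM in the macrophage-like class (0 of 7). *Il34*, the second ligand of CSF1R, had 2.02 and 0.492 CPM, *Csf3* (G-CSF) 6.75 and 2.05 CPM, *Flt3l* 2.81 and 3.49 CPM and *Kitl*, the KIT ligand, 8.21 and 6.11 CPM, with the CD40 KO-labelled library before WT. *Csf2*, which encodes GM-CSF, had 2 and 16 UMIs in the class. In fibroblast-like cells it had 55 UMIs from 4 barcodes in the CD40 KO-labelled library and 2 from 2 in WT, and in T or NK-like cells 1 UMI and 10 UMIs from 1 barcode each. *Kitl* was highest in endothelial-like cells, with 1205 CPM (1157 to 1255) in WT.

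Genes that act with these receptors were described from lists. Among 9 receptors near the family 3 were measured: *Il2rg*, the gamma common chain, was past 1.5-fold higher at 55.9 CPM in the CD40 KO-labelled library and 35.6 CPM in WT (log2 ratio 0.65) but not in the *Ly6c2* cluster (0.33), *Il6st*, the gp130 chain, had 51.1 and 47.3 CPM, and *Il3ra*, the IL-3 binding chain that pairs with the beta chains, had 19.2 and 26.2 CPM. Of 19 signalling genes of CSF1R 18 were measured, 2 were past 1.5-fold higher and 0 lower, with a median log2 ratio of 0.16. The kinase *Fyn* stood at 275 CPM in the CD40 KO-labelled library and 126 CPM in WT (log2 ratio 1.13) and the kinase *Lyn* at 910.1 CPM in the CD40 KO-labelled library and 604 CPM in WT (log2 ratio 0.59). In the *Gpnmb* cluster 1 gene of the list was past 1.5-fold higher and 0 lower, and in the *Ly6c2* cluster 0 were higher and 1, *Akt1*, was lower (−0.64). *Fyn* had log2 ratios of 1.05 and 0.57 in these clusters and *Lyn* 0.57 and 0.34, so the calls of *Lyn* in both and of *Fyn* in the *Ly6c2* cluster ended. The lowest ratios were those of *Akt1* (71.8 and 104 CPM) and *Pik3cd* (36.3 and 49.9 CPM), kinases of the PI3K pathway, both within 1.5-fold.

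Of 11 genes that signal below the beta common chain and CSF3R 10 were measured, 1 was past 1.5-fold higher and 0 lower (median 0.10). That gene was *Jak2*, the kinase bound by the beta chain, at 139 CPM in the CD40 KO-labelled library and 90.8 CPM in WT (log2 ratio 0.61). Within clusters *Jak2* was under 1.5-fold, at 0.43 in the *Gpnmb* and 0.34 in the *Ly6c2* cluster, and 0 genes of the list were past it higher in either. Past it lower were 0 genes in the *Gpnmb* cluster and 1 in the *Ly6c2* cluster, *Tyk2* at −0.60 (−0.84 to −0.36). *Stat5b* had 47.3 and 36.2 CPM, *Tyk2* 11.4 and 15.7 CPM and the phosphatase *Ptpn6* 97.7 and 105 CPM. Of 14 genes known to be induced by STAT5 or STAT3 10 were measured and 1, the cytokine *Osm*, was past 1.5-fold higher at 231 CPM in the CD40 KO-labelled library and 143 CPM in WT (log2 ratio 0.69). *Myc* had 20.3 and 13.8 CPM, and the survival genes *Mcl1* and *Bcl2l1* had 946 and 1064 CPM and 61.8 and 67.3 CPM, lower in the CD40 KO-labelled library and within 1.5-fold. The median of that list was 0.37. *Osm* had log2 ratios of 0.78 in the *Gpnmb* and 0.41 in the *Ly6c2* cluster, under 1.5-fold in the second. *Myc* had 0.78 (0.58 to 0.98) and 0.23 (−0.01 to 0.47), past 1.5-fold in the first only. Of this list 2 of 10 measured genes were past 1.5-fold higher in the *Gpnmb* cluster and 0 of 11 in the *Ly6c2* cluster, with 0 lower in either.

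Among 15 transcription factors of the *Csf1r* locus and the myeloid lineage 13 were measured, 1 past 1.5-fold higher and 2 lower (median −0.09). *Ets2* was the higher one, at 243 CPM in the CD40 KO-labelled library and 147 CPM in WT (log2 ratio 0.73), with 0.78 in the *Gpnmb* and 0.46 in the *Ly6c2* cluster, under 1.5-fold in the second. *Egr2* had 28.9 and 22.9 CPM. *Cebpa*, a factor of early myeloid cells, was lower at 102 CPM in the CD40 KO-labelled library and 189 CPM in WT (log2 ratio −0.89), and *Irf8*, a factor of monocytes and dendritic cells, was lower at 102 CPM in the CD40 KO-labelled library and 169 CPM in WT (log2 ratio −0.72). In the *Gpnmb* cluster these were −0.57 and −0.55, within 1.5-fold, and in the *Ly6c2* cluster −0.80 and −0.65, past it. Of 13 genes known to be induced by GM-CSF 9 were measured, 2 past 1.5-fold higher and 1 lower (median −0.26). *Il1b*, an inflammatory cytokine, was higher at 1012 CPM in the CD40 KO-labelled library and 418 CPM in WT (log2 ratio 1.27) and the chemokine *Ccl24* at 18.0 CPM in the CD40 KO-labelled library and 11.9 CPM in WT (log2 ratio 0.59). *Ccl24* was not past 1.5-fold within either large cluster, with log2 ratios of −0.34 in the *Gpnmb* cluster, under 10 CPM there, and 0.15 in the *Ly6c2* cluster. *H2-Aa*, an antigen-presentation gene, was lower at 326 CPM in the CD40 KO-labelled library and 519 CPM in WT (log2 ratio −0.67), with −0.74 in the *Gpnmb* and −1.54 in the *Ly6c2* cluster, and the lipid regulator *Pparg* had 45.9 and 64.8 CPM. Genes of the same list thus stood on both sides. Within clusters 1 of 8 measured genes of it was past 1.5-fold higher and 2 lower in the *Gpnmb* cluster, and 1 of 9 higher and 3 lower in the *Ly6c2* cluster. Beside *H2-Aa*, the antigen-presentation genes *Cd74* and *H2-Ab1* had log2 ratios of −1.21 and −1.14 in the *Ly6c2* cluster. They had −0.64 and −0.23 in the *Gpnmb* cluster, and −0.38 and −0.26 in the class. The shares of all measured genes past 1.5-fold, 8.8% higher and 3.42% lower, are the background for each of the counts in the class. For counts within clusters the background is 5.98% higher and 2.03% lower in the *Gpnmb* cluster. In the *Ly6c2* cluster it is 6.47% and 4.84%.

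Genes with the most similar pattern were found by Pearson's r of log2(CPM + 1) over 19 profiles of cell clusters by library, among 10491 genes. The profiles share 2 libraries and differ in depth, so r is given as a description. *Csf1r* was most like *Slc37a2* (0.97), *Fermt3* (0.97) and *Clec12a* (0.96), and *Csf2ra* like *Tmem189*, *Plcb2* and *Myo1f* (0.97 each). *Csf2rb* was most like *Lrrc8d* (0.97), *Itga4* (0.97) and *Dock2* (0.96), and *Csf2rb2* like *Cyth4* (0.93), *Il10ra* (0.92) and *Nrros* (0.92). *Csf3r* was nearest to *Cd33*, *Orai2* and *F630028O10Rik* (0.95 each), *Csf1* to *Hsd11b1* (0.92), *Steap4* (0.91) and *Pi16* (0.89), and *Flt3* to *Ciita* (0.90), *Etv3* (0.89) and *H2-Oa* (0.87). Among the 7 genes themselves, *Csf2rb* and *Csf2rb2* were the closest pair (0.88), and *Csf1r* and *Csf1* had the lowest value (−0.50).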

How the data were processed

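The values are raw UMI counts as deposited, 1 matrix per library, and per the file headers the authors used Cell Ranger 7.0.1. STAR and mm10 are named in the submitters' processing notes. Nothing used here says whether intronic reads counted. The 7 genes, the marker lists and the gene lists were chosen with earlier results of these data known.

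Kept barcodes had 1000 UMIs and 500 genes or more, and mitochondrial UMIs of 10% or less. These limits left out 2 and 214 barcodes labelled CD40 KO and 1547 and 983 WT barcodes. Median depth before filters was 5346.5 UMIs in the CD40 KO-labelled library, whose shallowest deposited barcode had 1618, and 9353.5 UMIs in WT, whose shallowest had 500. Scrublet (scanpy 1.11.5) was run on each library and the highest scores were removed at 0.8% per 1000 barcodes (531 and 903), since its own threshold marked 0 and 39. Deposited barcodes shared by both libraries numbered 23. Counts were scaled to 10000 per barcode, and 2000 variable genes (without the 7 genes, *Cd40*, sex-linked, mitochondrial, ribosomal and haemoglobin genes), 30 components, 15 neighbours and Leiden resolution 0.6 gave 13 clusters. A cluster was named from at least 3 list markers among its 40 leading genes. It stayed unnamed with 95% of barcodes from 1 library, when shallow, or with markers of another type and macrophage markers together. These limits were set after the clusters were seen, and other clusterings were named after the main clusters.

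UMIs were summed per cluster and library and scaled to CPM, with exact Poisson intervals, exact conditional intervals for ratios and exact binomial (Clopper-Pearson) intervals for shares. Counting intervals treat UMIs as independent, and 3 counts stand for a count of 0. With 1 library per group no test was made. The calculation of ratios was also run on simulated libraries of known fold, drawn from the WT counts of the macrophage-like class after the clusters were named. By rule the text names the 7 genes, the 2 highest and 2 lowest measured genes of each list, and the 3 most similar genes of each of the 7. Sort markers, *Cd40*, *H2-Ab1* and leading genes of clusters were added, and genes of the gates are examples. Alternatives changed scaling, weights, gating, filters, doublet removal, depth, resolution and limits. Positions and transcripts came from GENCODE vM21 (GRCm38), which need not be the authors' annotation. Tools were matplotlib 3.10.9, igraph 0.11.9, biopython 1.88, scikit-learn 1.9.0, pandas 2.3.3, scipy 1.17.1, Python 3.11.15 and numpy 2.4.6.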

Additional observations from a re-analysis of the deposited data

How the results depend on the processing

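The count of genes at least 1.5-fold higher in the macrophage-like class (2 of 6) was 0 when barcodes were gated one by one from markers and 0 with cluster shares made equal. It was 1 with the mixed cluster added (*Csf2rb*) and 1 in barcodes with no neutrophil marker UMI (*Csf1*). The count of lower genes (0) was 1, *Csf3r* each time, under both of the first settings, with median-of-ratios scaling, with the mixed cluster added, in barcodes with no neutrophil marker UMI and at 1.3-fold. Apart from the 1.3-fold limit, where 10.3% of all measured genes were lower, the share of all measured genes was not counted under these settings. The changed counts therefore have no background beside them and are given as a description. The causes were not tested. *Csf1* turned to a log2 ratio of −0.12 under the barcode gate and −0.013 with the mixed cluster added, and lay between 0.56 and 0.95 under the other 10 settings. The other 6 genes kept their direction under all 12 settings: *Csf2rb* 0.44 to 0.77, *Csf1r* 0.19 to 0.30, *Csf2rb2* 0.10 to 0.44, *Flt3* 0.84 to 1.72, *Csf2ra* −0.23 to −0.06 and *Csf3r* −0.91 to −0.46. The barcode gate put 7176 barcodes labelled CD40 KO and 6374 WT barcodes in the class, those of the mixed and *Mt1*/*Crip1* clusters included. Classes without or with neutrophil transcripts and with the *Mt1*/*Crip1* cluster were added after seeing the data. Of 546 CPM levels recomputed under an alternative 416 stayed within the counting interval and 130 moved out of it. Shares of barcodes were recomputed after thinning to 1500 UMIs in place of 3000, and of 70 shares 19 stayed and 51 moved. A lower depth lowers detection by itself, so these counts cannot show whether the shares are stable. For *Csf1r* in macrophage-like barcodes the share went from 51.7% to 29.9% in the CD40 KO-labelled library. In WT it went from 45.5% to 26.9%. *Csf2ra*, *Csf3r*, *Csf1* and *Flt3* kept the same highest cell type in all 8 settings in both libraries. With the macrophage-like class taken whole, *Csf1r* was highest in the mixed cluster. That held in 5 of 8 settings in the CD40 KO-labelled library and 7 in WT. *Csf2rb* stayed highest in dendritic-like cells in 8 and 7. The barcode gate, which has no mixed cluster, called only 38 and 70 barcodes dendritic-like. *Flt3* stood at 193 and 148 CPM in them, so its level depends on how they are drawn. No paired analysis was possible because each group has 1 library. The floor of 10 CPM kept *Flt3* out of the counts, and clusters under about 100 barcodes limit the values of neutrophil-like cells labelled CD40 KO.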

Other observations

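The *Mt1*/*Crip1* cluster, 4350 barcodes of the CD40 KO-labelled library at a median of 3209.5 UMIs, was described for the 7 genes on its own, since only 23 WT barcodes fell in it. Its levels were 242 CPM (234 to 249) for *Csf1r*, 107 CPM (102 to 112) for *Csf2ra*, 32.5 CPM (29.9 to 35.2) for *Csf2rb2*, 26.1 CPM (23.8 to 28.6) for *Csf3r* and 14.2 CPM (12.5 to 16.0) for *Csf1*. Only 2384 of its barcodes reached 3000 UMIs and 1966 were left out; of those thinned, 51.7% had a *Csf1r* UMI, against 51.7% of macrophage-like barcodes of the same library. The 12 neutrophil markers summed to 1202 CPM there and to 223 CPM in the macrophage-like class. The 8 fibroblast markers summed to 298 CPM there, against 31.2 CPM in the class. *Ptprc* stood at 247 against 568 CPM and *Itgam* at 96.3 against 188 CPM, while *Fcgr1* was higher, at 226 against 168 CPM. With both libraries joined, macrophage markers summed to 17097 CPM in the *Mt1*/*Crip1* cluster. They summed to 17086 CPM in the *Gpnmb*, 10110 CPM in the *Ly6c2* and 12357 CPM in the cycling cluster. The part of neutrophil or fibroblast RNA in the levels of the *Mt1*/*Crip1* cluster was not tested. *Csf3*, the ligand of CSF3R, stood at 10.0 CPM (8.62 to 11.6) in it. *Kit*, a receptor of the same kinase family, was seen in dendritic-like cells at 21.8 CPM (17.9 to 26.4) in the CD40 KO-labelled library and 27.3 CPM (22.4 to 33.0) in WT.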
